A study of Mus musculus with 6 samples.

Results

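NEGR1 (neuronal growth regulator 1) is 1 of the 5 members of the IgLON family of cell adhesion proteins, and all 5 of its genes, Negr1, Lsamp, Opcml, Ntm and Iglon5, were found by symbol among the 56941 gene identifiers measured. Poly(A) RNA was sequenced from the ventral hippocampus of 6 mice, 3 with the genotype labelled NEGR1_overexpression and 3 labelled NEGR1_control. The question behind the study was how an excess of NEGR1 bears on working memory and on anxiety- and depression-like behaviour. Neither the strain, age and sex of the mice nor the vector or transgene, its promoter and the cells it reached could be taken from the labels. Depth ran from 30726110 to 38108394 counts a library, and all 5 IgLON genes were among the 19354 that passed the filter on low counts.

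IgLON proteins are chains of immunoglobulin domains held on the outer face of the neuronal membrane by a glycosylphosphatidylinositol (GPI) lipid anchor, so they have no part inside the cell. They bind to themselves and to one another, within a membrane and between cells, and act on neurite outgrowth and synapse formation. The extracellular part can be cut off by a protease, and NEGR1 shed in this way has been described as a product of ADAM10. LSAMP, the limbic system-associated membrane protein, was first known as a marker of limbic regions such as the hippocampus. OPCML is the opioid-binding cell adhesion molecule, NTM is neurotrimin, and IgLON5 is the target of autoantibodies in a neurological disease named after it.

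The coding sequences show how far the members differ, which bears on whether reads of one could be counted for another. They encode 348 codons in Negr1, 355 in Lsamp, 345 in Opcml, 344 in Ntm and 336 in Iglon5 (GENCODE M21 transcripts, the longest complete coding sequence of each gene). Aligned in pairs, Opcml and Ntm were the closest, with 71.2% of aligned bases identical. Negr1 was 60.8% identical to Lsamp, 59.6% to Opcml, 59.0% to Ntm and 57.0% to Iglon5. Of 970 positions without a gap in the alignment of all 5, 321 (33.1%) held the same base in every member. Among 60-base stretches without a gap in any member, the one with the most such positions, 31 of 60, is shown with those bases in capitals. It starts at coding base 189 in Negr1, 237 in Lsamp, 198 in Opcml and Ntm, and 189 in Iglon5, counted from 1 at the A of the start codon.
Negr1: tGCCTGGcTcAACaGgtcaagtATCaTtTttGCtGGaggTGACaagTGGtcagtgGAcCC
Lsamp: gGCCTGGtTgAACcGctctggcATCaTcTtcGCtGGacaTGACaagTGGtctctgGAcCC
Opcml: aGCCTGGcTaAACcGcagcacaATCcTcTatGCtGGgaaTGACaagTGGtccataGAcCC
Ntm: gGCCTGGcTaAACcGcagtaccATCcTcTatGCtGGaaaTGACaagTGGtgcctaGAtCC
Iglon5: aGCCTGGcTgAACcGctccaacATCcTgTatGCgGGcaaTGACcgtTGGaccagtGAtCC

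A few bases downstream lies the gap-free stretch with the fewest shared positions, 12 of 60, stretches with a gap in any member being left out. It starts at coding base 255 in Negr1 and Iglon5, 303 in Lsamp, and 264 in Opcml and Ntm, and capitals again mark bases identical in all 5.
Negr1: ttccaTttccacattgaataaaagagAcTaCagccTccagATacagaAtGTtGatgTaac
Lsamp: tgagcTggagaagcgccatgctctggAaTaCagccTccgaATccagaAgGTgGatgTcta
Opcml: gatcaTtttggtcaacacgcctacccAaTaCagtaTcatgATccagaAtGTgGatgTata
Ntm: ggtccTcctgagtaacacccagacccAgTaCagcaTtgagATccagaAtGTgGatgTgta
Iglon5: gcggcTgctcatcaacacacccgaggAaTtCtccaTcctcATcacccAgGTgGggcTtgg

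None of the 10496 distinct stretches of 50 bases in the Negr1 transcripts occurred in a GENCODE M21 transcript of another gene. Only exact matches were searched, and the annotation used for counting may hold other genes. The longest run of identical bases that Negr1 shared with another member was 18 bases, with Lsamp and with Opcml. The pair with the longest shared runs is Opcml and Ntm, which are adjacent genes on the same chromosome in RefSeq (GRCm38.p6). Their coding sequences share a run of 45 identical bases at coding bases 97 to 141 of both genes, and the longest run shared by any of their transcripts is 124 bases. The shared coding run, all of it in capitals, is given here once for both genes.
Opcml and Ntm: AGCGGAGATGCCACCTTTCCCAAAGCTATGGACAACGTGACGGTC
The share of 50-base stretches found in other genes, repeats included, was 0.959% for Opcml, 1.44% for Ntm, 0.139% for Lsamp and 0.458% for Iglon5. Within the coding sequence, 46 stretches of Opcml occurred in transcripts of other genes, and 0 of each other member did.

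Negr1, the gene named in the genotype, was read in every library. It stood at 185, 199 and 195 CPM (counts scaled to a common library size with TMM factors) in the libraries labelled overexpression, replicates 1 to 3, and at 181, 168 and 179.9 CPM in the control libraries. These values rest on 6215, 6801 and 7014 counts against 5819, 6318 and 5488. Every overexpression library lay above every control library, with 185 CPM in overexpression replicate 1 close to 181 CPM in control replicate 1. Groups that did not overlap with overexpression higher were found for 7.07% of all tested genes.

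The fold of Negr1 was 1.09 (95% interval 1.01 to 1.19), a log2 fold change of 0.13 ± 0.054 (SE, n = 3 a group). Negr1 did not pass the threshold of 0.05 (edgeR quasi-likelihood test, unadjusted p = 0.0309, adjusted p = 0.488). The unadjusted p depended on single libraries, at 0.122 without control replicate 2 and 0.0153 without overexpression replicate 1 (same edgeR test). The two-sided exact permutation test gave p = 0.1, the smallest that 3 libraries against 3 allow. Over all genes tested, 0.0465% passed the adjusted threshold and 9.24% had an unadjusted p under 0.05. The 95% interval of the fold thus ended at 1.19. The table holds 1 count per gene, so reads on the coding sequence and on untranslated exons cannot be told apart, and the coding sequence makes up 9.94% of the merged exon length of Negr1. Whether RNA from an added copy would be counted as Negr1 depends on its sequence, which the labels do not give.

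**Figure D1:**
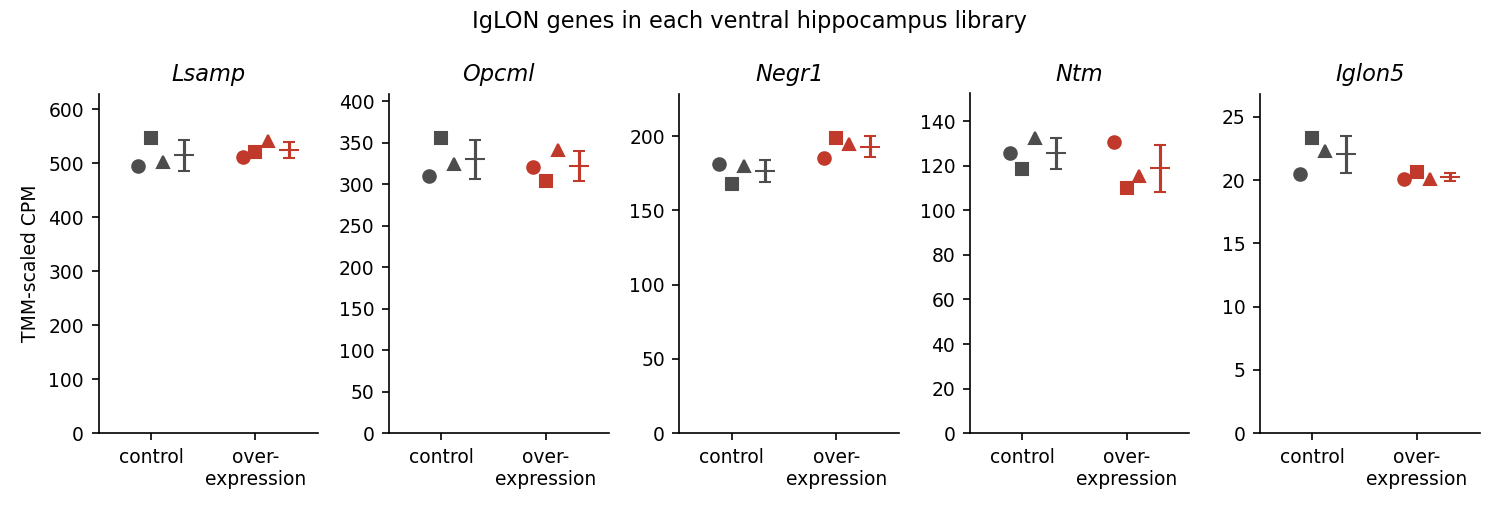
TMM-scaled CPM (y axis, from 0) of the 5 IgLON genes in control (grey) and overexpression (red) libraries, with circles, squares and triangles for replicates 1, 2 and 3 and the mean ± SD of 3 libraries beside them. The groups are apart for Negr1, at 185 to 199 against 168 to 181 CPM, and overlap for the other 4 genes.

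Lsamp, the most abundant member, stood at 512, 520.0 and 541 CPM in overexpression and at 495, 547 and 503 CPM in control libraries. Its highest and its lowest library were both controls, and the groups overlapped. The fold was 1.02 (95% interval 0.941 to 1.10, edgeR adjusted p = 0.917).

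Opcml stood at 321, 304 and 341 CPM in overexpression and at 309, 356 and 324 CPM in control libraries. The groups overlapped here too, with overexpression replicate 2 lowest and control replicate 2 highest. The fold was 0.976 (95% interval 0.890 to 1.07, edgeR adjusted p = 0.902). Its log2 fold change, -0.036, changed sign when either of these 2 libraries was left out, to 0.0044 without overexpression replicate 2 and 0.022 without control replicate 2.

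Ntm stood at 131, 109.9 and 116 CPM in overexpression and at 126, 118 and 132.5 CPM in control libraries. Overexpression replicate 1 lay among the controls, and the other overexpression libraries lay below all of them. The fold was 0.946 (95% interval 0.854 to 1.05, edgeR adjusted p = 0.757). Its log2 fold change was -0.16 without overexpression replicate 1, against -0.080 in all 6 libraries, and -0.028 when overexpression replicate 2 was left out instead. It was -0.040 and -0.12 with control replicates 3 and 2 left out in turn. Ntm passed the threshold in none of these fits, the adjusted p being 0.343, 0.933, 0.955 and 0.703.

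Iglon5, the least abundant member, stood at 20.1, 20.6 and 20.1 CPM in overexpression and at 20.5, 23.4 and 22.3 CPM in control libraries. The SD was 0.301 CPM over the overexpression libraries and 1.46 CPM over the controls. Control replicate 1 lay below overexpression replicate 2, so the groups overlapped. The fold was 0.919 (95% interval 0.821 to 1.03, edgeR adjusted p = 0.665). Its log2 fold change was -0.12 in all 6 libraries and -0.077 without control replicate 2.

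Of the 5 members, 0 were called higher and 0 lower at an adjusted p of 0.05 in edgeR's test, where 0.0258% of all tested genes were called higher and 0.0207% lower. In the family 1 gene had an unadjusted p under 0.05, and 1 had groups that did not overlap, where 15.1% of all tested genes did. DESeq2 and limma-voom called 0 of the 5 as well. The folds of 2 members were above 1 and those of 3 below. The median log2 fold change of the 5 was -0.036, beside 0.0015 over all genes tested. All 5 intervals lay between 0.821 and 1.19-fold.

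**Figure D2:**
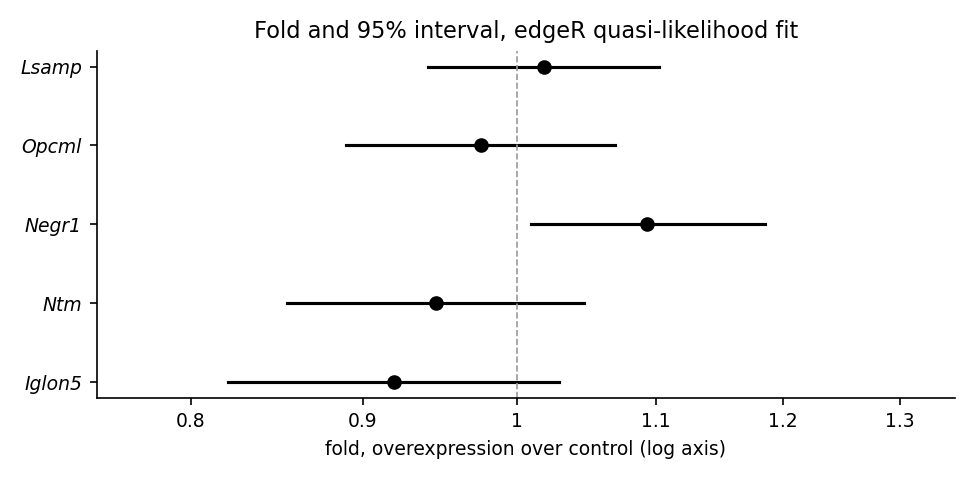
Fold of overexpression over control (log x axis) for each IgLON gene, as the edgeR estimate (point) with its 95% interval (line) from 3 libraries a group. The interval of Negr1, 1.01 to 1.19, lies above 1 and the other 4 include 1; the adjusted p of Negr1 was 0.488.

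Control replicate 2 was the lowest of the 6 libraries for Negr1, at 168 CPM, and the highest for Lsamp, Opcml and Iglon5. Overexpression replicate 2 was the highest for Negr1, at 199 CPM, and the lowest for Opcml and Ntm. The summed CPM of 10 neuron markers (among them Rbfox3, Snap25 and Map2) was also highest in control replicate 2, at 8056, and lowest in overexpression replicate 2, at 7188. In the other 4 libraries it lay between 7551 and 7646. In bulk tissue, fewer cells of a type and less RNA per cell cannot be told apart. When each library was scaled to its neuron marker sum instead of by TMM, Negr1 stood at 185, 211 and 194 in overexpression and at 183, 159 and 179 in control libraries on the same scale. The log2 fold change of Negr1 was then 0.18, and its edgeR adjusted p was 0.401. The same scaling moved the median over all genes to 0.052.

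Ratios within a library do not depend on scaling between libraries, and they gave Negr1 no separation from the summed rest of its family. Negr1 had 0.188, 0.208 and 0.191 counts for each count of the other 4 members together in overexpression libraries, and 0.191, 0.161 and 0.183 in control libraries. Control replicate 1 and overexpression replicate 3 were level, and the groups overlapped. The log2 ratio was -2.35 ± 0.078 (SD, n = 3) in overexpression and -2.49 ± 0.13 (SD, n = 3) in control libraries, a difference of 0.14 that was 0.067 without control replicate 2. Against Lsamp, Opcml and Ntm taken singly the groups overlapped as well. Against Iglon5 they did not: there were 9.23, 9.65 and 9.67 Negr1 counts per Iglon5 count in overexpression and 8.86, 7.20 and 8.07 in control libraries. The ratio of Lsamp to Iglon5 was also apart, at 25.5, 25.2 and 26.9 against 24.2, 23.4 and 22.5. Of the 10 pairs of members, these 2, both with Iglon5, had groups that did not overlap. By CPM, 15.1% of all tested genes, taken singly, did not overlap, and no such share was computed for ratios. The pairs share members, so they are not independent, and no test was made of them.

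**Figure D3:**
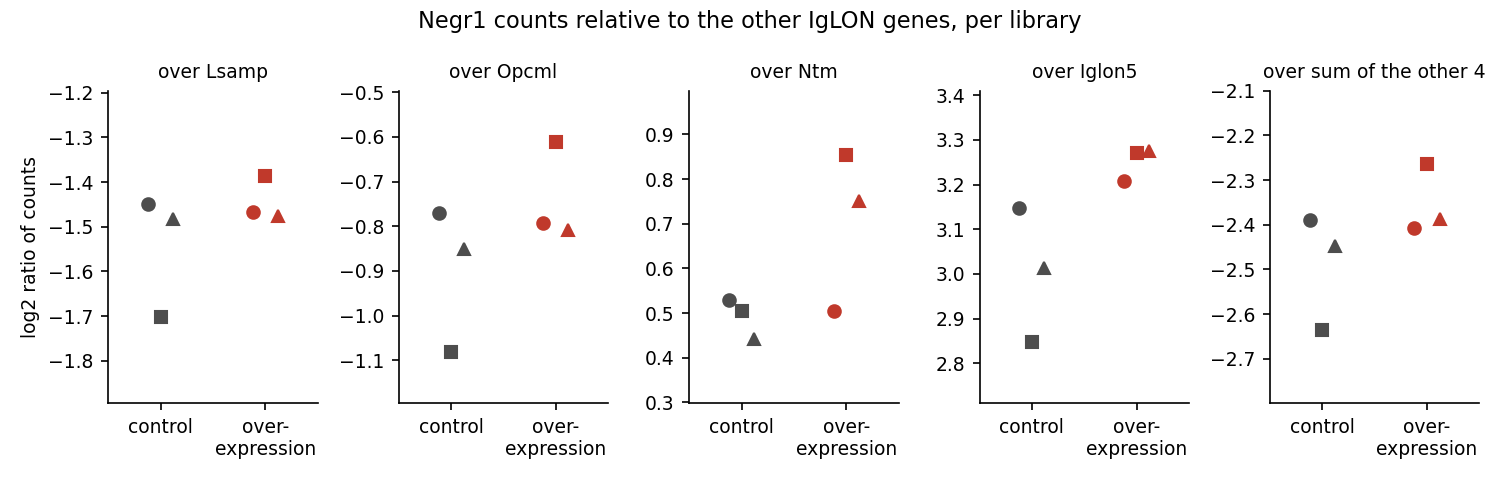
Log2 ratio of Negr1 counts to the counts of each other IgLON gene and to their sum (y axes of equal span, log2 units), per control (grey) and overexpression (red) library, with circles, squares and triangles for replicates 1, 2 and 3. The groups are apart for the ratio to Iglon5 and overlap in the other panels, where the ratio to the summed rest had a mean of -2.35 in overexpression and -2.49 in control libraries.

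Together the 5 genes took 0.117, 0.117 and 0.121% of all counts in overexpression libraries and 0.114, 0.120 and 0.115% in control libraries. Their summed level was 1178 ± 30.5 against 1168 ± 41.2 CPM (SD, n = 3), and the groups overlapped. Of the family's counts, Lsamp made up 44.5% in overexpression and 44.0% in control libraries, Opcml 27.3% and 28.2%, Negr1 16.4% and 15.1%, Ntm 10.1% and 10.8%, and Iglon5 1.72% and 1.89% (means of 3 libraries). By library, the share of Negr1 was 15.9, 17.2 and 16.1% in overexpression and 16.0, 13.9 and 15.5% in control libraries, with exact Clopper-Pearson 95% intervals that reached from 13.5 to 14.2% in control replicate 2 and from 16.9 to 17.6% in overexpression replicate 2. These intervals cover counting error only. The share of Iglon5 was 1.72, 1.79 and 1.66% in overexpression and 1.81, 1.93 and 1.92% in control libraries. The groups did not overlap for that share, though the counting intervals of overexpression replicate 2 (1.66 to 1.92%) and control replicate 1 (1.67 to 1.95%) did. By CPM, the groups did not overlap for 15.1% of all tested genes, taken singly.

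By counts the order of the members was Lsamp, Opcml, Negr1, Ntm and Iglon5 in each of the 6 libraries, and their ranks among the 19354 tested genes were 224, 462, 1087, 1864 and 7740. Long transcripts collect more reads, so ranks, ratios and shares by counts mix the length of a gene with its level, and levels were compared between genes per length. Per kb of merged exons (GENCODE M21, GRCm38), Lsamp was at 30.5 ± 0.869 CPM per kb in overexpression and 29.9 ± 1.64 in control libraries (SD, n = 3). Opcml was at 22.2 ± 1.28 and 22.7 ± 1.64, and Negr1 at 18.4 ± 0.655 and 16.8 ± 0.693 CPM per kb. Ntm was at 14.7 ± 1.33 and 15.5 ± 0.869, and Iglon5 at 7.73 ± 0.115 and 8.40 ± 0.558 CPM per kb. On this scale the lowest Lsamp library lay above the highest Opcml library, and the same held between Opcml and Negr1 and between Ntm and Iglon5. Negr1 was above Ntm within each of the 6 libraries, by 1.04 to 1.39 times. The ranges over libraries overlapped, since the highest Ntm library, at 16.4, lay above the lowest Negr1 library, at 15.99 CPM per kb.

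The middle of this order depended on which length was used, because these genes have long untranslated exons and several transcripts. Merged exons were 17213 bases for Lsamp, 14519 for Opcml, 10506 for Negr1, 8079 for Ntm and 2622 for Iglon5, while the longest coding sequences ran only from 1008 to 1065 bases without the stop codon. Per kb of the longest transcript, Ntm stood above Negr1 in 4 of 6 libraries. Per kb of the median coding transcript, the order was Lsamp, Ntm, Negr1, Opcml and Iglon5. Per kb of coding sequence Negr1 was 1.34 to 1.79 times above Ntm. These lengths are nearly equal and the counts cover whole genes, so this scale only repeats the order by counts. It was also the order per kb of merged exons. Lsamp was first and Iglon5 last with all 4 lengths.

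**Figure D4:**
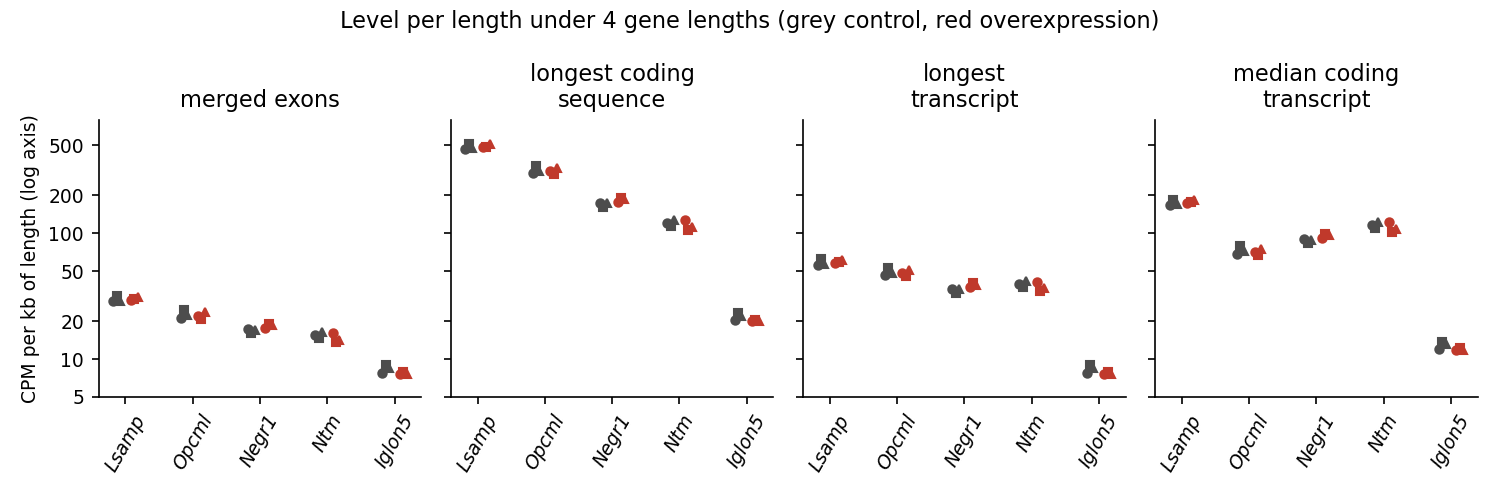
CPM per kb of length (log y axis, shared by the panels) of the 5 IgLON genes in each control (grey) and overexpression (red) library, with circles, squares and triangles for replicates 1, 2 and 3, using 4 definitions of gene length. Lsamp is highest and Iglon5 lowest in every panel, while Opcml, Negr1 and Ntm change places.

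The members other than Iglon5 are very long genes: Lsamp spans 2197 kb, Opcml 1135 kb, Ntm 968 kb and Negr1 755 kb, against 17 kb for Iglon5 (GENCODE M21). The annotation places 25 small or noncoding genes inside these spans, of which 0 share exon sequence with the member, and 18 were in the table of counts. None of the 18 exceeded 11 counts in a library. The 8 that lie within Negr1 on its own strand held 12, 1 and 5 counts in overexpression and 33, 11 and 8 in control libraries. These overlapped between groups and are small beside the 5488 to 7014 counts of Negr1.

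The genes whose pattern over the 6 libraries was most like that of Negr1 were Wdr70, Dguok, Cstf3, Lsm12 and Spice1. Likeness was the root-mean-square difference of log2(CPM + 0.5), each gene set to its own mean, over 6 libraries and among 10210 genes with a mean of at least 10 CPM. The difference was 0.0174, 0.0176, 0.0207, 0.0230 and 0.0230 in that order. Of the family, Lsamp had the smallest difference from Negr1, at 0.0985 and rank 3302, and Opcml, Ntm and Iglon5 were at ranks 7268, 8019 and 8064. A small difference can also come from a gene that varies little, so the rank of Lsamp does not show a shared pattern. In control replicate 2, Negr1 deviated from its mean by -0.134 and Lsamp by 0.0752. Their deviations also differed in sign in overexpression replicate 1 and had the same sign in the other libraries.

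Genes that make, anchor, cut or bind IgLON proteins were described from 5 lists. GPI anchors are built in the endoplasmic reticulum and joined to the protein by a transamidase, of which Pigk is the catalytic subunit and Pigt, Pigs, Pigu and Gpaa1 are further parts. Of 25 genes for GPI synthesis and attachment, 0 passed in either direction in edgeR's test, 15 had a fold above 1 and 10 below, and the median log2 fold change was 0.064. Pigt, with the smallest p in the list, was at 61.2 ± 4.60 CPM (SD, n = 3) in overexpression and 68.6 ± 0.819 in control libraries (edgeR adjusted p = 0.456), and Pigg, which modifies the anchor, was at 24.4 ± 1.29 against 21.5 ± 1.07 CPM (edgeR adjusted p = 0.480). All 5 transamidase genes had a fold below 1, singled out after their values were seen. Their log2 fold changes were -0.17 for Pigt, -0.14 for Gpaa1, -0.13 for Pigk, -0.10 for Pigu and -0.036 for Pigs, with edgeR adjusted p-values of 0.456 to 0.914.

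Of 8 genes that remodel or cleave the finished anchor 0 passed, 4 had a fold above 1 and 4 below (median log2 fold change 0.034). Pgap2, which acts on the lipid of the anchor, was at 9.29 ± 0.687 against 7.86 ± 0.124 CPM (edgeR adjusted p = 0.516), and Gdpd2, a glycerophosphodiesterase, at 5.81 ± 0.300 against 6.98 ± 0.922 CPM (edgeR adjusted p = 0.574). Of 16 listed sheddases, their tetraspanin partners and their inhibitors, 14 were tested and 0 passed, 7 with a fold above 1 and 7 below (median 0.0052). Adam10, the protease described for NEGR1, was at 112 ± 3.37 against 103 ± 1.43 CPM, with groups that did not overlap (edgeR adjusted p = 0.519). Timp3, a protease inhibitor of the matrix, was at 86.4 ± 6.43 against 68.2 ± 6.97 CPM, also without overlap (edgeR adjusted p = 0.212).

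Of 4 proteins described as binding partners of NEGR1, 0 passed and 3 of the genes had a fold below 1 (median log2 fold change -0.038). Fgfr2, a receptor for fibroblast growth factors, was at 42.2 ± 2.73 against 49.8 ± 5.51 CPM (edgeR adjusted p = 0.412) and Cd36, a fatty acid transporter, at 1.47 ± 0.452 against 1.20 ± 0.0744 CPM (edgeR adjusted p = 0.770). Ncam1, a neural cell adhesion molecule, was at 299 against 305 CPM and Npc2, a cholesterol carrier of the lysosome, at 45.2 against 46.7 CPM. Among 10 other GPI-anchored adhesion genes of the immunoglobulin superfamily, 0 passed, 4 had a fold above 1 and 6 below (median -0.021). Cntn2, a contactin of axons, was at 124 ± 13.9 against 151 ± 7.71 CPM (edgeR adjusted p = 0.269), and Thy1, an abundant glycoprotein of neurons, at 367 ± 1.68 against 404 ± 14.4 CPM (edgeR adjusted p = 0.429), both without overlap. Over the 61 tested genes of the 5 lists, 15 (24.6%) had groups that did not overlap, beside 15.1% of all tested genes. The lists were chosen with earlier results of these data known, so the 2 shares are no test of the lists. Besides Adam10, Timp3, Cntn2 and Thy1, the genes without overlap were Pigg, Pigk, Pign, Pigt, Pigu, Gpaa1, Pgap2, Gdpd2, Timp4, Ncam1 and Fgfr2.

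**Figure D5:**
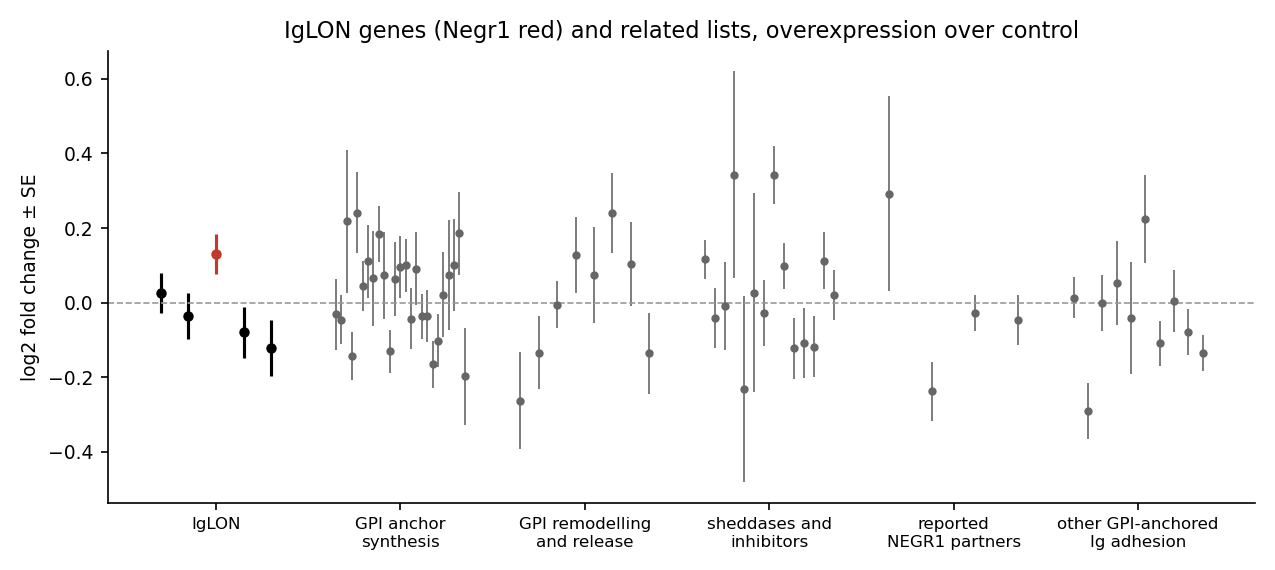
Log2 fold change of overexpression over control ± SE (y axis) for the 5 IgLON genes, with Negr1 in red, and for the tested genes of the 5 related lists (grey), from 3 libraries a group. Negr1 is at 0.13 and the medians of the 5 lists lie between -0.038 and 0.064.

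Marker lists were set beside the tissue label. Neuron, excitatory neuron and hippocampal subfield markers were present in all 6 libraries, with no listed marker at 0 counts over the 6. The same held for every list, and markers of neighbouring regions were not compared, so their presence does not test the label. Of 13 marker lists, the summed CPM was apart between groups in 2, where 15.1% of all tested genes, taken singly, were apart. The 7 oligodendrocyte markers summed to 3056 to 3618 CPM in overexpression and 3825 to 4813 in control libraries, and the 5 ventral hippocampus markers to 253 to 266 against 208 to 236 CPM. Choroid plexus markers summed to 725 CPM in overexpression replicate 1 and to 23.4 to 67.9 CPM in the other 5 libraries. Dentate granule markers summed to 226, 414 and 373 CPM in overexpression and to 274 to 313 CPM in control libraries, with groups that overlapped. The part of these differences in the values of Negr1, Iglon5 or the genes of the related lists, such as Cntn2 and Fgfr2, was not tested. Without overexpression replicate 1 the log2 fold change of Negr1 was 0.16 (edgeR adjusted p = 0.283), the highest when 1 library was left out. The lowest was 0.095, without control replicate 2 (edgeR adjusted p = 0.701).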

How the data were processed

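The authors deposited raw read counts for each Ensembl gene in a single table, whose 6 columns carry the libraries' names; it held 0 further per-sample columns. Libraries were poly(A)-selected and strand-specific (dUTP), per the labels' protocols. Per the submitters' processing notes, the tools are featureCounts 2.0.3, STAR 2.7.10 and Trimmomatic 0.36 and the builds GRCm39 and mm10, listed with no roles. The build counted on, the annotation release, the strand setting and the handling of reads that match several genes are not given in the sources used, so no genome coordinates are printed.

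A symbol was found for 51948 of 56941 identifiers. The members and lists were chosen with earlier results of these data known. Counts were fitted in R 4.3.3 with edgeR 4.0.16 (TMM factors, filterByExpr, robust quasi-likelihood test, a model with group alone). Benjamini-Hochberg adjustment ran over all 19354 genes that passed the filter, with a threshold of 0.05. Standard errors and 95% intervals came from the F statistic. Exact permutation tests used log2(CPM + 0.5). Gene lengths came from GENCODE M21 (GRCm38), which may differ from the annotation used for counting. Coding sequences from its transcripts were aligned in pairs and, for all 5, with MAFFT; a planned comparison of proteins was not run, since no protein sequences were used here. The fits were tested on simulated counts with a single dispersion for all genes. The simulated folds were larger than those of the members, so effects of the members' size were not tested. DESeq2 1.42.0 and limma 3.58.1 (voom with sample weights) were alternatives, beside other scalings, filters, the replicate number as a block, and leaving out each library.

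Named were the 5 members, the 2 genes with the smallest p in each related list and the 5 genes most like Negr1; Ncam1, Npc2 and the transamidase genes were added after their values were seen. No 2 libraries agreed within sampling noise (chi-square per degree of freedom 4.28 to 12.9). Each library is a mouse of its own, per the labels' design text.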

Additional observations from a re-analysis of the deposited data

How the results depend on the processing

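The log2 fold change of Negr1 stayed positive under all 16 alternatives, between 0.095 and 0.18, with adjusted p-values of 0.283 to 0.772, and those of Lsamp, Ntm and Iglon5 kept their sign under the same 16. Opcml changed sign under 3: 0.016 with the neuron marker sum, and a range of -0.077 to 0.022 when 1 library was left out. Of the 80 fits of members, 0 passed the threshold. The difference of Negr1 in log2 CPM was positive under each scaling and without each library. The order by level per length, in which Negr1 was at place 3, gave it place 4 per longest transcript and place 3, with Ntm above and Opcml below it, per median coding transcript. The share of Negr1 in the family, 15.8% over 6 libraries, was 18.8% per length.

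The count of genes called, 9, was 26 with the neuron marker sum, 304 without a filter, 5 with at least 1 CPM in 3 libraries, 107 with DESeq2, and 2 to 63 when 1 library was left out, lowest without control replicate 2 and highest without overexpression replicate 1. The cause was not tested. With the replicate block the count was 26, and Negr1 had a log2 fold change of 0.13 (adjusted p = 0.578). The labels do not say that replicate numbers pair mice, and deviations of same-numbered libraries correlated at 0.011, -0.047 and -0.054 over 10211 genes, so the numbers were not used as pairs; no library correlated best with its own number. Depth limits Iglon5 most, at 657 to 878 counts a library.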
